A study of Mus musculus with 7 samples.

Results

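The regions described here were 1263 distal binding sites of estrogen receptor beta (ERβ) in mouse ovary whose best estrogen response element (ERE) departed from the consensus at exactly 2 bases. They were selected on the signal of chromatin immunoprecipitation followed by sequencing (ChIP-seq) and on sequence. A site was a maximum of the 200-bp mean ChIP signal of at least 2, over 4 times the mean of both inputs and over 4 times the same library's 10-kb mean, that recurred in 2 or more of 3 ChIP replicates. Of 4251 such sites, 3627 were distal, which here means more than 1 kb from every annotated transcription start site (TSS). Among the distal sites, 240 held an ERE with 0 mismatches, 1020 one with 1 mismatch, 1263 one with 2 mismatches and 1104 only matches with 3 or more.

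All 3 ChIP replicates and both inputs came from ovaries of C57BL/6J mice that express ERβ from their own gene, without any treatment named in the labels. As the study's methods describe, the animals were offspring lacking Cre from a cross set up to delete the receptor gene, each ChIP replicate pooled ovaries of several mice of differing ages, and the ovaries were not staged for the estrous cycle. The antibody was the mouse monoclonal PPZ0506, and inputs were chromatin sequenced without immunoprecipitation. The 2 ChIP samples from ERβ knockout ovaries were not analysed here, so the dependence of these sites on the receptor was not tested. Chromatin signal does not report marker gene expression, and the labelled tissue could not be checked against it.

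ERβ, encoded by Esr2, is a nuclear receptor that in the ovary is found mainly in granulosa cells, which surround the oocyte and convert androgens to estrogens. It binds DNA as a dimer, and each partner of the dimer contacts one arm of a palindromic element. The consensus ERE consists of the half-site GGTCA, 3 free bases and the same half-site on the opposite strand. Receptors of this family also bind elements that deviate from the palindrome, and sequence outside the element, such as the base before each half-site, contributes to contacts with DNA.

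The 1263 sites were split by where the mismatches fell. In 742 sites both mismatches lay in one half-site, so that the other was intact (one-sided sites), and in 521 sites each half-site carried one mismatch (split sites). Matches of equal quality occurred in 193 sites (15.3%), of both classes in 104 (8.23%), and the match nearest the site centre was then used. Among the elements printed below, those of Mast4 and Ampd3 had an equal match of the other class in the window. The Gramd1b and Flrt1 elements were chosen among 2 and 6 equal matches of the same class. Elements are printed below for the strongest site of 7 of the 8 most frequent changed half-sites in one-sided sites, since these forms carry the comparison with the genome. Capitals mark the fixed bases that match the consensus, and lower case marks mismatches, the 3 free bases and 10 bp of flank on each side. One-sided elements are written from their intact half-site.

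Heph (chrX:96418067-96418079, plus strand): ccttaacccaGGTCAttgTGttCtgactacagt
Hdac4 (chr1:92184343-92184355, plus strand): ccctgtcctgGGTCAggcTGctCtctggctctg
Mast4 (chr13:103270500-103270512, minus strand): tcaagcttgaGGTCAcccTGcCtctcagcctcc
Cog6 (chr3:52876380-52876392, minus strand): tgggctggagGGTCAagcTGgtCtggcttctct
Utp6 (chr11:79843188-79843200, minus strand): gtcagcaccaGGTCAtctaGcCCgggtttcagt
Gramd1b (chr9:40442994-40443006, plus strand): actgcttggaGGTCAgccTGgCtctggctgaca
Rhobtb1 (chr10:69100536-69100548, plus strand): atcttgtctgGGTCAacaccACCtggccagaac

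Coordinates are those of the 13-bp element in GRCm38 (mm10), and the gene named is the one with the nearest protein-coding TSS. The Heph element lay in intron 1 of 10 of Hsf3, the Hdac4 element in intron 1 of 3 of an Hdac4 transcript, and the Utp6 element in intron 2 of 4 of 9130204K15Rik. The Mast4 and Gramd1b elements were intronic in those genes, and the Cog6 and Rhobtb1 elements were intergenic. Split elements of strong sites follow, on the plus strand, with both changed half-sites visible as one lower-case base on each side of the 3 free bases.

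Sema7a (chr9:57938919-57938931): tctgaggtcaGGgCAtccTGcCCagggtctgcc
Lyrm9 (chr11:78814643-78814655): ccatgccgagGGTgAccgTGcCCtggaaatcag
Flrt1 (chr19:7150964-7150976): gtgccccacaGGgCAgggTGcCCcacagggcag
Gm10309 (chr17:86570675-86570687): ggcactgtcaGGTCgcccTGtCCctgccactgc
Trib2 (chr12:16046955-16046967): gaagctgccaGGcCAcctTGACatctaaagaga
Bcat1 (chr6:144695883-144695895): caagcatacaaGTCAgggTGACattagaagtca
Ampd3 (chr7:110792367-110792379): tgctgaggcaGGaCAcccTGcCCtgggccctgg

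The first question was how often a 2-mismatch ERE is the best match by composition of the genome alone. Of 110106 distal windows of 200 bp placed on a fixed grid of 20 kb, 6.19% had a best match with exactly 2 mismatches, against 34.8% of the distal sites. In the separate site lists of ChIP replicates 1, 2 and 3 this share was 35.6%, 34.3% and 35.1%. A 2-mismatch match was thus the most common class among sites, whereas 93.4% of grid windows had 3 or more mismatches against 30.4% of sites. Measured from its middle, the element lay a median of 16.5 bp from the centre of the site, and no more than 25 bp away in 66.98% of sites. Matches in grid windows lay a median of 46.5 bp from the window centre, with 27.2% inside 25 bp. Sites within 1 kb of a TSS were similar in this respect, with 36.9% of 624 having a 2-mismatch best match.

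Signal was described in each library, although the rule had used the same ChIP and input contrast. The median 200-bp mean signal of the 1263 sites was 3.61, 4.45 and 4.35 in ChIP replicates 1, 2 and 3, and 0.660 and 0.547 in Input 1 and 2. The lowest ChIP value exceeded the highest input value in 1258 of 1263 sites, and over all distal sites this held for 99.4%. The median fold over input was 6.79 ± 0.632 (SD, n = 3 replicates), and the mean fold per site ran from 3.17 to 52.2. Folds were measured at the centre shared by the replicates, so 32 sites (2.53%) had a second-best fold at or under 4 there. ChIP replicate 1 gave the lowest fold of the 3 replicates in 777 sites (61.5%). All 3 replicates called 888 of the 1263 sites (70.3%), against 68.9% of all distal sites. For one-sided sites this was 540 of 742 (72.8%) and for split sites 348 of 521 (66.8%).

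**Figure D1:**
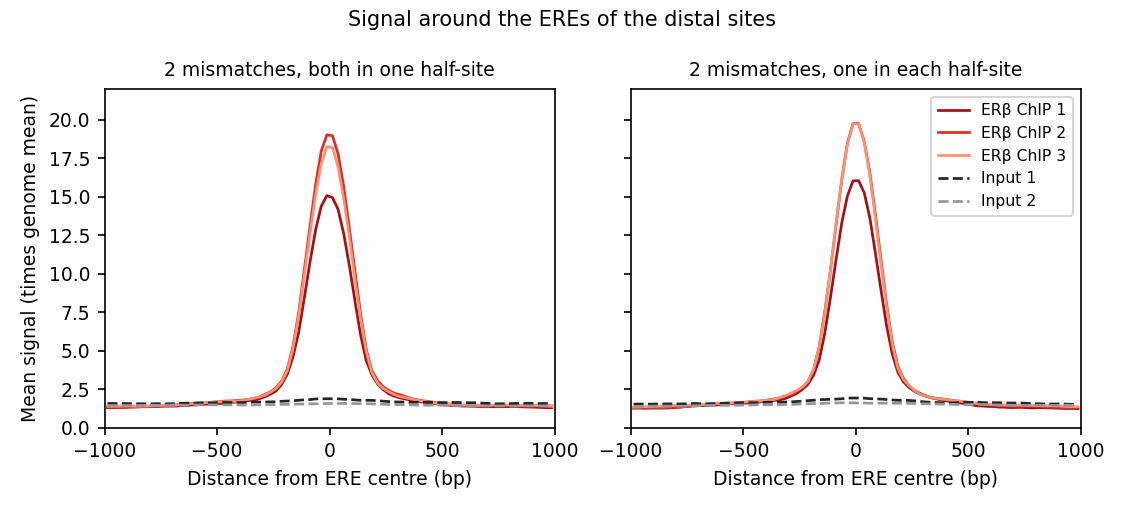
Mean signal in bins of 25 bp (vertical axis, in multiples of each library's genome mean) against the distance from the ERE centre in bp, for one-sided sites (left) and split sites (right) in 3 ERβ ChIP libraries (solid lines) and 2 inputs (dashed lines). ChIP signal within 25 bp of the ERE was 15.0 to 19.0 times the genome mean in one-sided sites and 16.04 to 19.8 times in split sites, with inputs between 1.58 and 1.94.

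The average profile was centred on the ERE in both classes. At about 1 kb from the element the ChIP libraries fell to between 1.27 and 1.41 times their genome mean, below the inputs at 1.43 to 1.58 times. The width at 0.5 of the height was 225 bp, except for 250 bp in ChIP replicate 1 at one-sided sites. The tracks have segments with a median length of 269 to 520 bp, which limits this resolution.

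One-sided sites were more frequent than the genome's elements would give. All distal genomic EREs with exactly 2 mismatches that were the best match within 100 bp and had input coverage were counted, which gave 739715 elements. Of these, 1256 were the chosen element of a site (0.17%), and 7 sites had elements outside this set. Both mismatches lay in one half-site in 43.7% of the genomic elements and in 58.7% of the sites, with 59.9%, 58.8% and 58.9% in the lists of ChIP replicates 1, 2 and 3 (mean 59.2 ± 0.603, SD, n = 3). Per 1000 genomic elements, 2.28 one-sided elements and 1.24 split elements were at a site. The 3 replicate lists gave 2.06, 2.69 and 2.56 for one-sided elements and 1.07, 1.47 and 1.39 for split elements, so the classes did not overlap between any pair of lists. In sequence outside soft-masked repeats the values were 2.80 and 1.56, and in repeats 0.758 and 0.463. For comparison, 115 of 1000 distal elements with 0 mismatches and 19.0 of 1000 with 1 mismatch were at a site. The element counts are a description, since regions of one genome are not replicates and the 3 lists share many sites.

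The share of elements at a site varied with the positions of the mismatches in both classes. Positions in each half-site were counted from 1 at the outer G to 5 at the inner A. Elements with both mismatches at positions 2 and 3 of one half-site made up 18.6% of the sites (233) and 5.74% of the genomic elements. Of these elements 5.49 per 1000 were at a site, and the replicate lists gave 4.99, 6.36 and 6.10. Positions 3 and 5 followed with 107 sites and 5.10 per 1000, then positions 4 and 5 with 84 sites and 3.37 per 1000. Among split elements, a mismatch at position 1 in one half-site and 3 in the other had the most, with 109 sites and 3.02 per 1000. Position 3 in both half-sites gave 86 sites and 2.40 per 1000. Outside repeats this order turned, with 4.87 per 1000 for position 3 in both half-sites and 3.31 for positions 1 and 3.

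At the other end, split elements with position 2 changed in both half-sites had 4 sites among 17321 elements, or 0.231 per 1000. Split elements with position 4 changed in both had 3 sites among 12170. One-sided elements with positions 1 and 2 changed had 21 sites among 47450, or 0.443 per 1000, with 0.379, 0.548 and 0.653 in the replicate lists. The values of these patterns in the 3 lists did not overlap with those of the most frequent patterns. Outside repeats these ends were the same patterns, with 7.83 per 1000 for positions 2 and 3 of one half-site and 0.274 for position 2 in both.

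**Figure D2:**
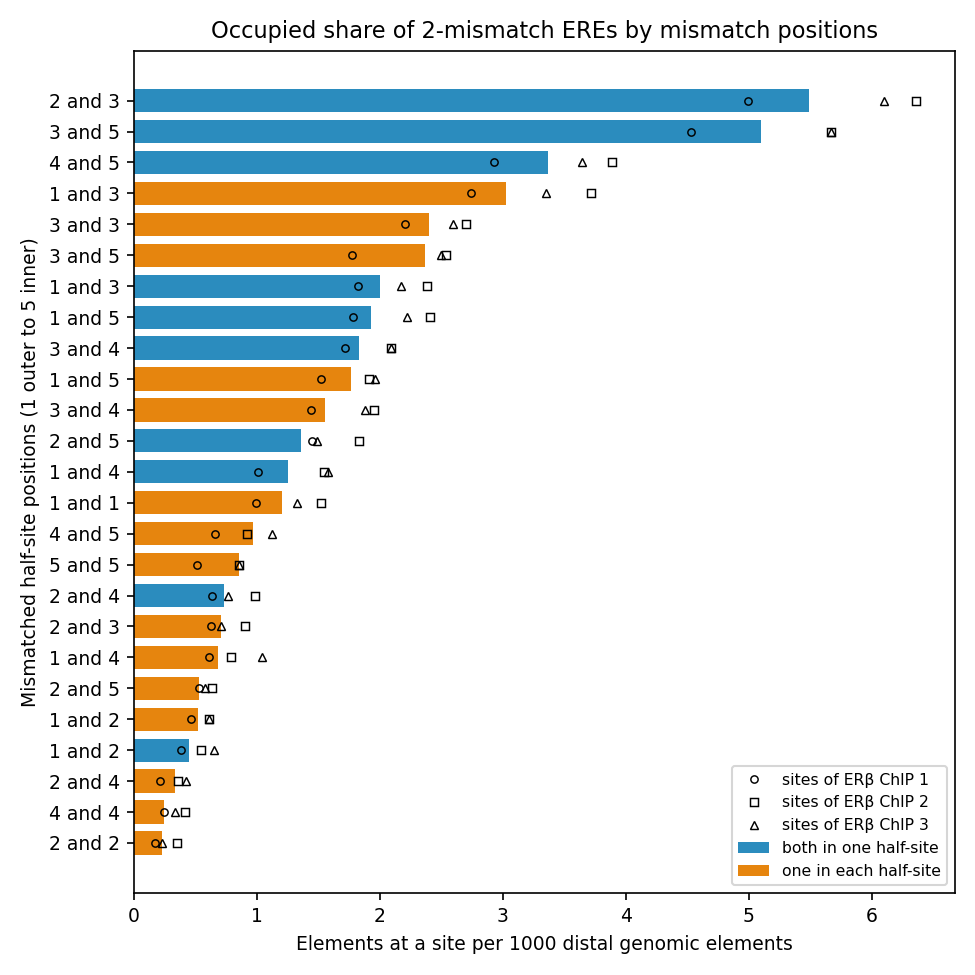
Elements at a site per 1000 distal genomic elements (horizontal axis) for the 25 possible combinations of mismatched half-site positions (vertical axis, 1 outer to 5 inner), coloured by class. Bars are sites in 2 or more replicates and open symbols the separate lists of the 3 ChIP replicates. Bars run from 0.231 for position 2 in both half-sites to 5.49 for positions 2 and 3 of one half-site.

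Single substitutions were then compared, each element contributing both of its mismatches. A substitution is written with the consensus base, its position in GGTCA and the base found. A5G was the most frequent relative to the genome, with 178 mismatches at sites among 16735 in the genome, or 10.6 per 1000 (8.78, 11.8 and 12.1 in the replicate lists). T3G followed with 408 at sites and 4.16 per 1000, then C4T with 148 and 2.43 and T3A with 309 and 2.31. Outside repeats T3A exceeded C4T, with 3.47 against 2.64 per 1000, and A5G and T3G remained first with 11.2 and 5.59. Position 3 alone accounted for 915 mismatches at sites, 36.4% against 24.0% in the genome. C4A, with 21 at sites among 82085, gave 0.256 per 1000, and G1C, with 7 among 29910, gave 0.234. At the inner position, A5G exceeded A5T (1.56 per 1000) and A5C (0.853 per 1000) in all 3 lists. Where the C at position 4 is kept, A5G gives a CG dinucleotide, which is rare in the mouse genome. Elements with a CG anywhere in their 13 bp were at a site in 4.94 of 1000 cases, and those without in 1.495 of 1000.

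In one-sided sites the changed half-site took 75 of 90 possible forms. The 5 most frequent forms held 31.2% of the sites and 8.79% of the genomic elements. GAACA was the commonest, with 69 sites among 4976 elements, or 13.9 per 1000 (12.9, 16.7 and 15.1 in the replicate lists). These letters are the core of the half-site bound by the glucocorticoid, progesterone and androgen receptors, which is given as background only. GAGCA had 54 sites and 13.3 per 1000, and the Hdac4 element printed above is of this form. GGTTG had 35 sites and 14.9 per 1000, and AGGCA had 38 sites and 6.53 per 1000. Forms ending in CG were few in the genome but often at a site. GGGCG was at a site in 17 of 388 elements, or 43.8 per 1000, and GGACG in 10 of 394, or 25.4 per 1000. AGACA had the lowest value of the forms with 10 or more sites, with 16 of 27460 elements or 0.583 per 1000. Most of its copies (82.1%) were in soft-masked repeats, and outside repeats it reached 2.85 per 1000, against 16.6 for GAACA and 15.1 for GAGCA.

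In split sites 83 of 120 pairs of changed half-sites occurred. The pair of GGGCA with itself had 24 sites among 1721 elements, or 13.9 per 1000, with 12.8, 14.5 and 15.1 in the replicate lists. It is the form of the Sema7a and Flrt1 elements printed above. GGGCA together with GGTCG was at a site in 11 of 344 elements, or 31.98 per 1000. GGGCA with TGTCA had 31 sites and 5.41 per 1000. The pair of TGTCA with itself had the most sites, 43, but also 34896 genomic elements, which gave 1.23 per 1000. Of those 43 sites, 33 were in soft-masked repeats.

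Repeated copies of one element accounted for part of this. The 1263 sites held 964 different 13-bp elements, read on either strand for split elements, and 185 of them occurred at more than 1 site. The 2 elements below, picked after their values were seen, are shown because all their sites were in soft-masked sequence while the share of their copies at a site differed.

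Most frequent split element: tGTCAactTGACa
One-sided element with 6 sites, all soft-masked: GGTCAacaccACC

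The split element was at 24 sites among 22434 genomic copies, or 1.07 per 1000, with a median fold over input of 5.61, and 15 of its sites were called in all 3 replicates. The one-sided element was at 6 sites among 127 copies, or 47.2 per 1000, with a median fold of 11.6, and all 6 were called in all 3 replicates. The Rhobtb1 element printed above is one of these 6. Soft-masked sequence as a whole held 9.32% of the sites and 27.1% of the genomic elements. Only uniquely mapped reads entered the tracks, and how far this lowered the signal in repeats was not tested.

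Bases next to the element differed from the genome as well. In one-sided sites the base before the intact half-site was A in 55.4% and G in 35.2%, against 36.3% and 23.2% of the genomic elements. T stood there in 6.37% of sites and 37.1% of elements, which gave 0.392 at a site per 1000, against 3.49 for A. The replicate lists gave 0.350, 0.526 and 0.492 for T and 3.14, 4.16 and 3.91 for A. The base after the changed half-site behaved alike on the opposite strand, with C in 35.4% and T in 46.3% of sites against 23.9% and 32.4% of elements. Elements with A or G before both half-sites, each read on its own strand, were 74.1% of one-sided sites and 34.6% of their genomic elements. Among split sites the same was true of 79.5% against 38.0%. The extension to AGGTCA, the longer form of the half-site, was thus the most frequent at sites, but per genomic element G was nearly equal (3.47 per 1000).

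The 3 free bases also differed from the genome. T at the first free base after the intact half-site was found in 14.1% of one-sided sites against 30.7% of genomic elements, and C in 35.6% against 23.1%. At the third free base C was found in 32.8% against 25.5% and T in 16.5% against 23.8%. The windows of the sites had a median GC content of 50%, and those of the elements 44.0%, and the part of GC content in these base shares was not tested.

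Further sequence in the 200 bp around the element was compared with the same genomic elements. A further half-site (GGTCA on either strand, not overlapping the ERE) was found in 50% of sites, 49.7 ± 0.281% over the replicate lists (SD, n = 3), against 26.8% of elements and 26.5% of all 200-bp windows of the genome. The GATA motif (AGATAA), bound by the granulosa cell factors GATA4 and GATA6, was found in 20.1% (20.7 ± 0.878) against 11.4% of elements and 13.3% of all windows. The FOXO motif (TGTTTAC) was found in 5.49% (5.44 ± 0.446) against 2.60% and 2.98%. The AP-1 motif (TGANTCA) was found in 8.997% (9.08 ± 0.443) against 6.38% and 5.93%. All motifs were read on both strands without a mismatch and, apart from the further half-site, could overlap the ERE or each other. Within windows of 45 to 55% GC the shares were 51.3% against 31.6% for the further half-site, 19.6% against 7.98% for GATA and 5.33% against 2.01% for FOXO. For AP-1 they were 8.53% against 6.27%.

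NR5A receptors such as LRH-1 bind TCAAGGTCA, a half-site with an extension, so the intact half-site of a one-sided element could itself belong to such a motif. TCAA preceded the intact half-site in 11 of 738 one-sided sites (1.49%) and in 3.01% of their genomic elements. NR5A motifs that overlapped no base of the ERE were found in 32 of 1256 sites (2.55%) against 0.455% of elements. NR5A motifs at any place in the window, the ERE included, were found in 3.93% of one-sided sites against 3.71% of their elements, and in 3.82% of all sites against 2.08%. Of all 200-bp windows of the genome, 0.421% held this motif. The one-sided elements all hold the GGTCA that the motif contains, so their share is not that of general sequence. Only this exact sequence was counted, which is a narrower measure than the motif search in the study's paper. That search found the NR5A motif in a much larger share of its ERβ-bound sequences, so the shares cannot be compared. The paper also reports LRH-1 binding in granulosa cells at part of its ERβ sites. Whether NR5A receptors bind at the sites described here was not tested.

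**Figure D3:**
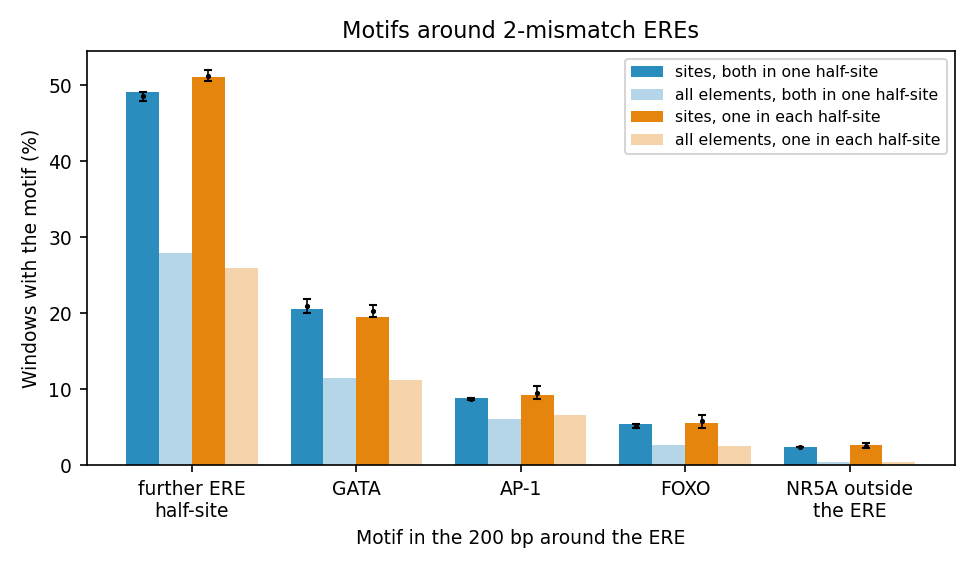
Share of 200-bp windows with each motif (vertical axis, percent), for one-sided and split sites (full colour) and for all distal genomic elements of the same class (pale). Black points and bars are the mean ± SD of the separate lists of the 3 ChIP replicates. A further half-site was present in 49.2% and 51.2% of the sites of the 2 classes and in 28.0% and 25.9% of the elements.

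Between the classes, GATA motifs were found in 20.6% of one-sided and 19.5% of split sites and FOXO motifs in 5.42% and 5.60%, and for both motifs the ranges over the replicate lists overlapped. For the further half-site they did not overlap, with 47.9% to 49.1% in one-sided and 50.5% to 51.8% in split sites. The lists share sites, as 888 of the 1263 sites were called in all 3 replicates. These ranges therefore do not give the sampling error of the shares, and a class difference was not tested.

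Whether one-sided and split sites differed in strength was asked in a replicate that took no part in finding them. Sites called in a pair of replicates were measured in the remaining one, which gave 943 to 1116 sites with a 2-mismatch ERE. The median fold was 6.32 in one-sided and 6.15 in split sites in replicate 1, 8.42 and 8.58 in replicate 2, and 7.79 and 7.91 in replicate 3. One-sided sites were thus higher in 1 and split sites in 2 of 3 replicates. The track names of ChIP replicates 2 and 3 and Input 2 share a prefix that those of ChIP replicate 1 and Input 1 lack, and the labels do not say what it marks. Against the input of the like name, one-sided minus split was -0.0071, -0.024 and -0.055 in log2 fold, so that split sites were higher in 3 of 3 replicates (mean -0.029, exact sign-flip permutation test, two-sided, p = 0.25). Against the mean of both inputs, the difference in median log2 fold, one-sided minus split, was -0.0044 ± 0.037 (SD, n = 3; exact sign-flip permutation test, two-sided, p = 1, smallest possible p = 0.25). The 3 differences lay between -0.028 and 0.038, and no difference in strength between the classes was detectable at this number of replicates.

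Compared with sites of other mismatch numbers, the 2-mismatch sites lay between those with 1 and those with 3 or more. The median log2 fold in the held-out replicate was 3.06 ± 0.34 for 0 mismatches, 3.00 ± 0.28 for 1, 2.91 ± 0.23 for 2 and 2.70 ± 0.24 for 3 or more (SD, n = 3). Sites with 2 mismatches exceeded those with 3 or more by 0.21 ± 0.027 in log2 fold, and the difference was positive in 3 of 3 replicates (exact sign-flip permutation test, two-sided, p = 0.25, the smallest this design allows). Sites with 1 mismatch exceeded those with 2 by 0.096 ± 0.076, again in 3 of 3 replicates (p = 0.25, same exact test). Sites with 0 mismatches exceeded those with 2 by 0.16 ± 0.16, which ranged from 0.021 to 0.33. In replicate 1 the sites with 0 and 1 mismatches were nearly equal, at 2.67 and 2.69. The share of 2-mismatch sites over 4-fold in the held-out replicate was 79.2% to 95.0%. It was close to this in the other groups, with 79.7% to 96.1% for 0 mismatches and 79.7% to 96.8% for 1. For 3 or more mismatches it was 76.0% to 93.0%.

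**Figure D4:**
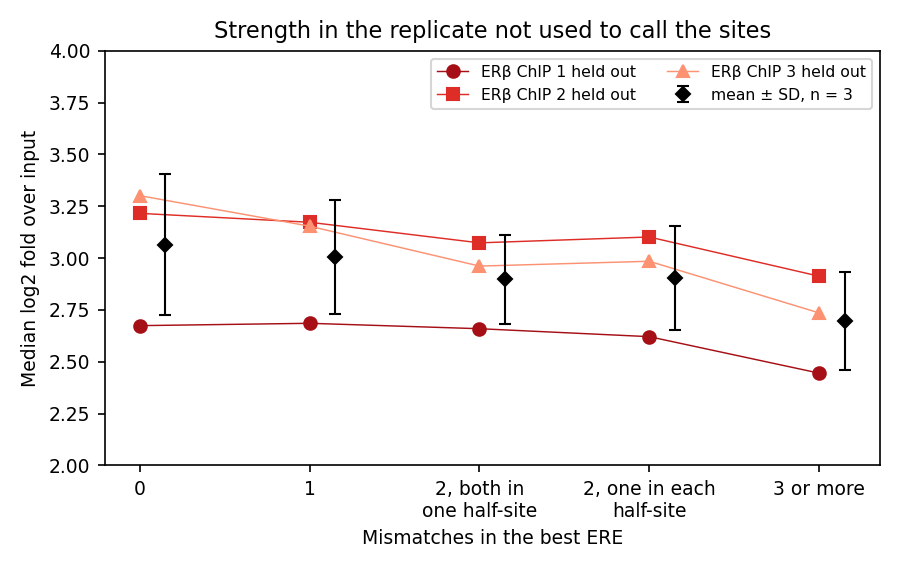
Median log2 fold over input (vertical axis, from 2 to 4) in the ChIP replicate not used to call the sites, by number and placement of mismatches in the best ERE. Coloured symbols are the 3 replicates and black diamonds their mean ± SD. The 2 classes with 2 mismatches both averaged 2.90, between 3.00 for 1 mismatch and 2.70 for 3 or more.

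Among the 2-mismatch sites themselves, 8 sequence features were compared in the same way. Sites with A or G before both half-sites exceeded the others by 0.10 ± 0.017 in held-out median log2 fold, and sites with a further half-site by 0.10 ± 0.053. Sites with a FOXO motif exceeded those without by 0.16 ± 0.012. Sites in soft-masked sequence were lower by 0.24, as the difference was -0.24 ± 0.032. Each of these had the same sign in 3 of 3 replicates, with p = 0.25 by the exact sign-flip permutation test and 0.33 after Benjamini-Hochberg adjustment over the 8 features. The differences for an AP-1 motif (-0.057 ± 0.045) and a GATA motif (0.050 ± 0.071) also kept their sign in 3 of 3 replicates, and that for GATA was smaller than its SD. Those for a CG in the element (0.069 ± 0.091) and for mismatches at positions 2 and 3 of one half-site (0.018 ± 0.077) changed sign between replicates.

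By pattern, the median fold over all sites was 7.51 ± 0.932 for positions 4 and 5 of one half-site, 7.38 ± 0.940 for positions 1 and 3 in different half-sites and 7.03 ± 0.501 for positions 2 and 3 of one half-site (SD, n = 3), which did not differ beyond their SD. The lowest among patterns with 20 or more sites was 5.86 ± 0.729, for positions 1 and 4 of one half-site. By changed half-site, GGACG stood apart with a median fold of 13.8 ± 2.15 over 10 sites, 9 of them called in all 3 replicates. GAACA had 7.57 ± 0.563 over 70 sites and AGTTA 5.80 ± 0.348 over 12. These values come from the libraries that chose the sites.

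The signal at 2-mismatch EREs was also compared over the whole genome, first with the elements of the called sites included. The mean 200-bp signal of 323284 one-sided elements was 1.15, 1.19 and 1.21 times the genome mean in ChIP replicates 1, 2 and 3, and 1.16 and 1.15 times in Input 1 and 2. For 416431 split elements it was 1.11, 1.14 and 1.16 in ChIP and 1.14 and 1.13 in inputs. The one-sided minus split difference was 0.0387, 0.0468 and 0.0487 in ChIP and 0.0254 and 0.0195 in inputs, so every ChIP library exceeded both inputs. The mean excess of ChIP over input was 0.0223. Within like track names it was 0.0133 for ChIP replicate 1 against Input 1 and 0.0282 for ChIP replicates 2 and 3 against Input 2. No test is given, because this set includes elements that had been selected on ChIP over input. Without the elements of the 2-mismatch sites the ChIP levels were 1.12, 1.15 and 1.18 for one-sided and 1.10, 1.12 and 1.14 for split elements. With elements within 1 kb of any called site left out, the ChIP values were 0.0218, 0.0248 and 0.0289 and the input values 0.0244 and 0.0190. The excess was then 0.0035. Away from called sites the ChIP and input values overlapped, so most of the excess lay at or near sites selected on ChIP signal.

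The strongest sites are given with their values in every library, as the sites called in all 3 replicates with the highest mean fold in each class. Among one-sided sites the first was in intron 1 of 20 of Gramd1b, which encodes a transporter of cholesterol from the plasma membrane (chr9:40442888-40443087, 12.7 kb from the TSS). Its signal was 26.9, 34.2 and 32.6 in ChIP replicates 1, 2 and 3 and 0.725 and 0.740 in the inputs, and its fold was 42.6 ± 5.26 (SD, n = 3). All ChIP values lay far above both inputs, which follows from the ranking by fold, and replicate 1 was lowest. The 200 bp of this site are printed on the plus strand with the ERE in capitals, because the window shows what surrounds a strong one-sided element.

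Gramd1b site: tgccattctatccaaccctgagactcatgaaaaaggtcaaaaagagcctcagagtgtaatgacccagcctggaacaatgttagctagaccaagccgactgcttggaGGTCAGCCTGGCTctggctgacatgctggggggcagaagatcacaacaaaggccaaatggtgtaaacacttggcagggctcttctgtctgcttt

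This window held 2 further half-sites and 1 FOXO motif outside the ERE, and no GATA, AP-1 or NR5A motif. The element itself lay in soft-masked sequence. Its changed half-site was AGCCA, with mismatches at positions 1 and 3.

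The site at -13.4 kb from the TSS of Nek6, where minus means upstream, was intergenic (chr2:38498164-38498363), and Nek6 encodes a mitotic kinase. Its ChIP signal was 16.2, 22.9 and 22.6 and its input signal 0.417 and 0.682, a fold of 37.4 ± 6.84. Its changed half-site was GGACG, one of the forms with CG. The site 35.7 kb from the TSS of Inhbb was intergenic as well (chr1:119386494-119386693). Inhbb encodes the beta B subunit of activins and inhibins, hormones of granulosa cells that act on the pituitary and the follicle. Signal there was 21.5, 29.0 and 28.5 in ChIP and 0.651 and 0.817 in inputs, a fold of 35.9 ± 5.68. The ChIP and input values of these sites did not overlap, which follows from their selection on high ChIP over input.

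A further 6 one-sided sites of the first 10 had folds from 27.8 to 33.7. They were near C130060K24Rik (33.7 ± 6.32), Htr5a (31.7 ± 3.81), Mast4 (31.4 ± 5.53), Plcg2 (29.3 ± 3.70), Cela3a (28.5 ± 2.47) and Riok1 (27.8 ± 2.00). The Mast4 site was in intron 1 of 28 of that gene, which encodes a microtubule-associated kinase. The site named for Plcg2 lay in intron 9 of 20 of Cmip, so the nearest TSS and the gene that holds a site differed there. The 6 means spanned less than the largest of their SDs, and their order was not tested.

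Among split sites the strongest was at -1.18 kb from the TSS of Sema7a, which encodes a membrane-anchored semaphorin (chr9:57938831-57939030). Signal was 30.0, 31.98 and 33.6 in ChIP and 0.601 and 0.620 in inputs, and the fold was 52.2 ± 3.02. It was the site with the highest fold of all 1263, and it lay just outside the 1 kb that separates distal from promoter sites. Its 200 bp on the plus strand, with the ERE in capitals, show a further half-site that begins 5 bases before the ERE and so abuts it.

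Sema7a site: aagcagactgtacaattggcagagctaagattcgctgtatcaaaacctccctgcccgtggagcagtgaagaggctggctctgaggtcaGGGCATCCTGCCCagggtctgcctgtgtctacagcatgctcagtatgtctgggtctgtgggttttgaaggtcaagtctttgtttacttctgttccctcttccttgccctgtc

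A second further half-site began 68 bases after the start of the ERE, and a FOXO motif 79 bases after it. No GATA, AP-1 or NR5A motif was present in this window.

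The site at -11.9 kb from the TSS of Lyrm9 (chr11:78814548-78814747) had ChIP signal of 28.7, 38.5 and 38.4, input signal of 0.790 and 0.703 and a fold of 47.2 ± 7.59. The site in intron 3 of 10 of Macrod1, nearest to the TSS of Flrt1 (chr19:7150914-7151113), had 24.6, 28.1 and 31.5 in ChIP and 0.827 and 0.504 in inputs, a fold of 42.2 ± 5.14. The site in intron 11 of 14 of Prkce, a protein kinase C gene, was nearest to Gm10309 and had a fold of 34.4 ± 5.41. These sites were ranked by the same fold values, and their order was not tested.

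A further 5 split sites of the first 10 were near Trib2 (33.8 ± 5.64), Smoc2 (33.6 ± 6.71), Bcat1 (31.96 ± 4.68), Mex3c (31.6 ± 6.76) and Ampd3 (31.1 ± 5.55). The Bcat1 site was in intron 1 of 13 of Sox5, and the Ampd3 site in intron 4 of 14 of Ampd3, which encodes an AMP deaminase. Bcat1 encodes a branched-chain aminotransferase, and Smoc2 a secreted matrix protein that binds calcium. The folds of these 5 sites did not differ beyond the replicate SD, and their order was not tested.

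**Figure D5:**
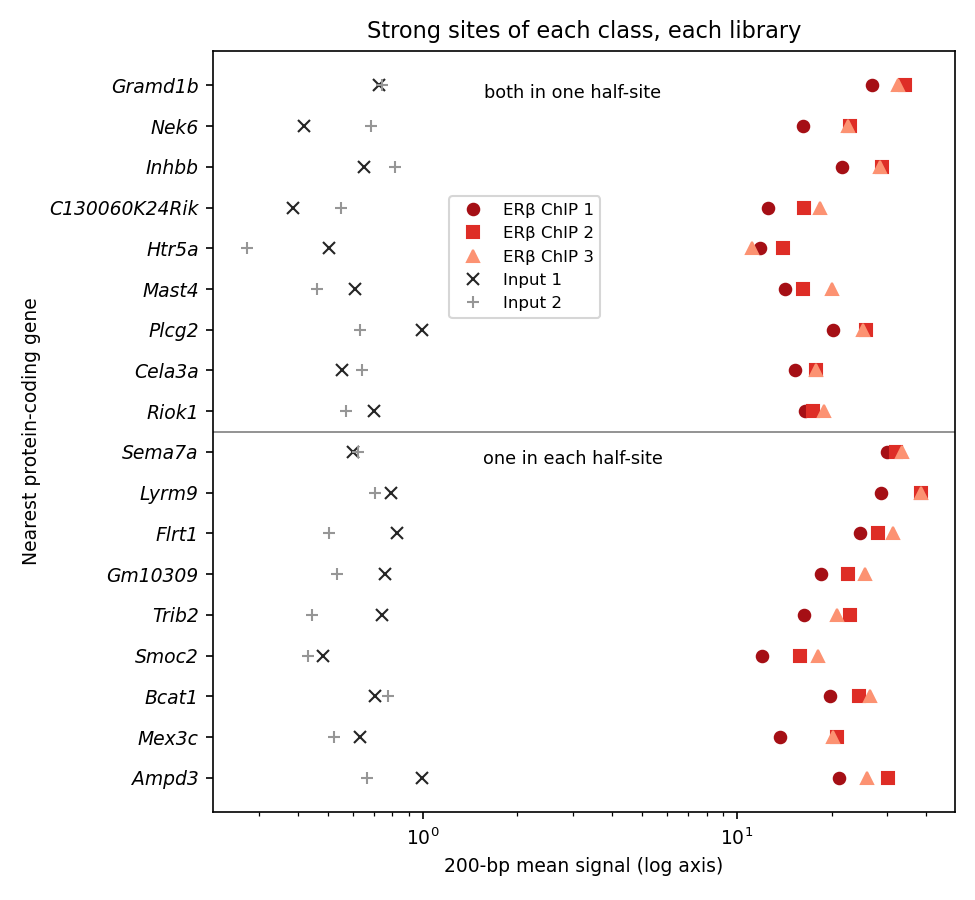
The 200-bp mean signal (horizontal log axis) in each of 3 ERβ ChIP and 2 input libraries for 9 of the 10 strongest one-sided sites (upper part) and 9 of the 10 strongest split sites (lower part), labelled by the nearest protein-coding gene. ChIP values of these sites ran from 11.1 to 38.5 and input values from 0.275 to 0.995.

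The values at the limits of the rule are given without a test. The sites just inside the fold limit of 4 in their second-best replicate were near Atoh8, Reg4 and Kansl1, with 4.004, 4.004 and 4.007. Those just outside were near Gpr84, Aak1 and Tanc1, with 3.98, 3.98 and 3.97. For the signal limit of 2, the sites just inside were near Smim15, Nup210 and Neb, with 2.01 each, and those just outside near Id3, Ankrd53 and Thpo, with values that round to 2.00. The Id3 site at this limit is another one than the strong Id3 site at -9.497 kb. The Id3, Ankrd53 and Thpo sites had second-best folds of 2.60, 2.97 and 3.29, so they also missed the fold limit. The Smim15 site, although called, had 3.75. At the centre shared by the replicates, 14 called sites had a second-best signal under 2. Among sites called in 1 replicate only, 85 had a second-best fold over 4. The sites named here therefore do not mark a sharp boundary of the rule. A further 611 distal sites with a 2-mismatch ERE were called in 1 replicate only.

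Most sites were in genes. Introns held 698 of the 1263 sites (55.3%), intergenic sequence 481 (38.1%) and exons 84 (6.65%). Of the genomic elements, 44.9% were intronic, 50.5% intergenic and 4.63% exonic. Per 1000 elements, 2.09 intronic, 1.29 intergenic and 2.39 exonic ones were at a site, and the replicate lists gave 1.85 to 2.49 for introns and 1.15 to 1.51 for intergenic sequence. The median distance to the nearest protein-coding TSS was 28.1 kb. One-sided and split sites were intronic in 54.6% and 56.2%.

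Within 100 kb, 1019 sites had a nearest protein-coding gene, and 897 of 21681 such genes (4.14%) were nearest to at least 1 site. Proximity in sequence does not show that a site acts on a gene, and genes with long introns or wide neighbourhoods have more elements near them. In 7 gene lists the shares were 20% (8 of 40) for TGF-beta, BMP and activin signalling, 19.4% (6 of 31) for granulosa cell fate and gonadotropin response, and 18.2% (6 of 33) for vessel and hedgehog signalling. They were 14.3% (5 of 35) for nuclear receptors and coregulators, 13.2% (5 of 38) for ovulation and matrix, and 7.41% (2 of 27) for steroid and cholesterol synthesis. Of 35 annotated estrogen target genes known from other tissues, 0 were nearest to a 2-mismatch site. The lists overlap, with Inhbb, Bmpr1b and Runx1 in more than 1 of them, and they were chosen with results known, so these shares are a description.

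In the TGF-beta list, Inhbb had the strongest site, given above. Bmpr1b, a type I receptor for bone morphogenetic proteins in granulosa cells, had an intronic split site (chr3:141893418-141893617) with ChIP signal of 9.37, 11.5 and 11.8, input signal of 0.318 and 0.320 and a fold of 30.4 ± 3.65. Id3, a target of that pathway which inhibits basic helix-loop-helix factors, had an intergenic one-sided site at -9.497 kb from its TSS with 21.0, 23.01 and 19.8 in ChIP and a fold of 26.4 ± 1.99. Smad3, which transmits activin and TGF-beta signals, had an intronic one-sided site with a fold of 11.1 ± 1.03. The remaining 4 genes of this list had folds from 4.30 to 7.80.

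In the granulosa cell list, Gata4 was nearest to an intronic one-sided site, at -50.5 kb, with a fold of 7.30 ± 1.33, and Gata6 to an exonic split site with 6.97 ± 0.920. Both encode transcription factors of granulosa cells. The remaining 2 genes of this list had folds of 3.35 and 3.795. In the list of nuclear receptors and coregulators, Nr4a1, an orphan receptor gene induced by luteinizing hormone, had 2 sites, the strongest a split site at -6.07 kb from the TSS with a fold of 11.2 ± 2.88. Nr3c1, the glucocorticoid receptor gene, and Ncoa2, a coactivator gene, had 1 split site each, with folds of 4.81 ± 0.755 and 4.46 ± 1.18. The Nr3c1 site was called in all 3 replicates and the Ncoa2 site in 2.

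In the vessel and hedgehog list, Ihh, a hedgehog ligand gene expressed in granulosa cells, had an upstream intronic split site with position 3 changed in both half-sites (chr1:74977031-74977230). Its ChIP signal was 15.3, 22.7 and 23.1, its input signal 0.683 and 0.904 and its fold 25.6 ± 5.5. Angpt2, an antagonist ligand of the vessel receptor Tie2, had a split site with 13.7 ± 1.93, and Thbs4, a thrombospondin gene, an intronic one-sided site with 12.0 ± 0.161. In the list of ovulation and matrix genes, Lamb1, a laminin gene, reached 9.37 ± 3.61 and Cebpb, needed for luteinization, 5.97 ± 0.538. In the list of steroid and cholesterol synthesis, Insig1 had 1 site with a fold of 4.81 ± 1.12, called in 2 replicates. Sc5d, a gene of cholesterol synthesis outside this list and named after its values were seen, had a stronger split site, with a fold of 14.8 ± 3.15 and called in all 3 replicates.

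Of the 897 genes nearest to a site within 100 kb, 107 were nearest to 2 or more of the sites and 3 genes to 4 each. How many such genes all distal sites or all genomic elements would give was not tested. Oxtr, the oxytocin receptor gene, had 2 one-sided and 2 split sites over 44.9 kb with folds from 4.77 to 6.40. Nol4l had 4 sites over 107 kb with folds from 3.99 to 11.5, and Zfp385b, which encodes a zinc finger protein, 4 sites over 238 kb with folds from 6.64 to 8.55. All 3 genes had 2 sites of each class.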

How the data were processed

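ERβ ChIP-seq of mouse ovary was analysed from 3 ChIP and 2 input libraries. The authors deposited signal tracks, in which each segment of the genome carries a normalized read coverage. Per the labels and the study's methods, reads were aligned to mm10 (GRCm38) with STAR, unique reads were kept and HOMER made the tracks, with versions not given in the sources used here. Total signal (value times length) was 928 to 948 M per library, so the tracks had been scaled to a near-equal total. Read depth is unknown, and no counting interval is given.

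From these tracks, 200-bp means were taken every 10 bp and sites were called as described in the report, with a floor on the input at the genome mean. Start sites came from 139486 transcripts of the GENCODE annotation of GRCm38. The best ERE was the match with the fewest mismatches at its 10 fixed bases on either strand. Genomic elements were counted where the input lay between 0.5 and 10 times the genome mean. Fold is the ChIP mean over the mean of both inputs, without a pseudocount. Held-out folds came from the replicate that did not call the site. Tests were exact permutation tests over libraries, two-sided, and their p-values measure only the spread between these samples. The held-out values of the 3 replicates share many sites and the same inputs, so they are not fully independent. The ERE scan, site calling and the sign of a held-out class difference were checked on simulated data with a large difference put in. The permutation tests were not checked in this way. Python 3.11.15, numpy 2.4.6, scipy 1.17.1, pandas 2.3.3 and matplotlib 3.10.9 were used.

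The sites, gene lists and features were chosen with earlier results of these data known. Genes were named by a rule: the 10 sites of highest fold in each class called in all 3 replicates, up to 4 genes of each list with the strongest sites, genes nearest to 4 or more sites, and the 3 sites on each side of each limit. The examples of changed half-sites and the repeated elements were chosen after their values were seen. A few sites that these rules name are not reported here. ChIP and input samples share replicate numbers but no stated origin. Alternatives to the limits, annotation, ERE window, inputs and replicates were tried.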

Additional observations from a re-analysis of the deposited data

How the results depend on the processing

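The number of sites stayed between 888 and 1355 under 12 alternatives, and fell to 474 when over 8-fold enrichment was required. The share of one-sided sites was 60.0% with a minimum signal of 3, 59.7% over 8-fold, 60.8% for sites in all 3 replicates and 58.1% with the ERE searched in 400 bp, and it ran from 59.1% to 60.6% when 1 ChIP or input library was left out. In the other alternatives it was 58.7% to 59.2%. The held-out difference between the classes (-0.0044 in log2 fold) changed sign to 0.0075 without ChIP replicate 2, to 0.0051 without ChIP replicate 3 and to 0.011 with tied matches of both classes left out. Leaving out 1 library gave -0.063 to 0.0075, and 13 alternatives kept the sign, between -0.079 and -0.0039. The cause of these changes was not tested. The exact permutation p could not go below 0.25 in any alternative, so it does not help to judge them. The genome-wide class difference (0.0223) kept its sign in 12 alternatives, was 0.0193 to 0.0253 with 1 library left out, and fell to 0.0035 away from called sites. Counted in another unit, as the percentage of windows over 4 times the genome mean, it was 0.254 percentage points. With replicate number as a block, using numbers 1 and 2 only, it was 0.0203. The deviations of same-numbered ChIP and input samples had r = 0.0229 and -0.0082. These values cannot tell whether same-numbered samples share an origin. Of the alternatives, 4 were chosen after seeing the data: sites outside repeats (59.2% one-sided), inputs with a like track name (-0.029), sites of 45 to 55% GC (-0.033) and windows of 45 to 55% GC (0.036). The number of replicates limits every test, and the unknown read depth limits the weaker sites.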
